A study of Mus musculus with 9 samples.

Results

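Secreted modulators of Wnt signalling, bone morphogenetic protein (BMP) ligands and the inhibitor of DNA binding (ID) genes were examined in the choroid plexus of old mice with and without apolipoprotein E (ApoE). The members were 10 genes, Sfrp1, Dkk3, Wls, Bmp4, Bmp6, Bmp7, Id1, Id2, Id3 and Id4. Probe sets annotated to exactly 1 of these symbols numbered 24 of the 45101 on the array. Choroid plexus, the tissue in the brain ventricles that makes cerebrospinal fluid, was captured by laser microdissection. The donors were male C57BL mice, fed normal chow and 78 weeks old. The groups were apoE-/-, with 4 arrays, and wild-type, with 5 arrays, with 1 array per sample. Since the number of animals is not labelled, the p-values refer to the spread between these 9 samples, part of which may be technical.

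Wnt proteins are lipid-modified secreted signals that bind Frizzled receptors and LRP co-receptors and thereby stabilise beta-catenin. Some secreted inhibitors hold Wnt proteins away from those receptors. BMPs bind paired type I and type II receptors, which phosphorylate SMAD1, SMAD5 and SMAD9. These enter the nucleus with SMAD4 and switch on genes that include the ID genes. ID proteins have a helix-loop-helix domain but no DNA-binding region, so they pair with E proteins such as TCF3, TCF4 and TCF12 and keep them from DNA. In mouse embryos BMP signalling at the dorsal midline of the brain is needed for the choroid plexus to form.

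Values are signal intensities on a linear scale after quantile normalisation, and differences are log2 differences, apoE-/- minus wild-type. A probe set was tested with a present call on 4 or more of the 9 arrays, and it was called higher or lower when the Benjamini-Hochberg adjusted p of limma over all 21478 tested probe sets was under 0.05. Apoe, the deleted gene, had deposited signals of 12.2 to 53.8 on the apoE-/- arrays and 18252 to 23953.1 on the wild-type arrays, so each array matched its label. The share of present calls per array was 44.0% to 49.1%. Markers of choroid plexus epithelium summed to 143898 to 152708 in apoE-/- and 141532 to 152282 in wild-type, over 8 tested markers of which 0 were called (limma) and 1 had an unadjusted p under 0.05. Wild-type replicate 1 stood apart in neural markers. It had the highest summed signal of the 9 arrays for neurons (1711) and oligodendrocytes (6182), although the defining genes Mog, Mag and Nefm were called present on no array. Because these are bulk captures, fewer cells of a type and less RNA per cell cannot be told apart.

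All 10 genes were expressed in this tissue by the array's detection calls. Of the 24 probe sets, 20 were called present on all 9 arrays, and these were the ones tested. The other 4, 1 each of Sfrp1, Dkk3, Wls and Bmp7, were called present on at most 1 array and were not tested. Of the 20 tested, 1 was called higher and 1 lower in apoE-/-, and both belonged to Sfrp1. Over the whole array 0.67% of tested probe sets were called higher and 1.92% lower, 2.59% in all. Groups did not overlap for 3 of the 20 (2 higher and 1 lower in apoE-/-), against 6.89% of all tested probe sets, 2.72% higher and 4.17% lower. An unadjusted p under 0.05 was found for 8 of the 20, against 16.5% of all. The 20 had a median log2 difference of 0.046, with 12 above and 8 below 0, against a median of 0.0014 over all tested probe sets. The 18 probe sets that were not called read between -0.30 and 0.69, and their 95% intervals lay within -0.54 to 1.12.

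**Figure D1:**
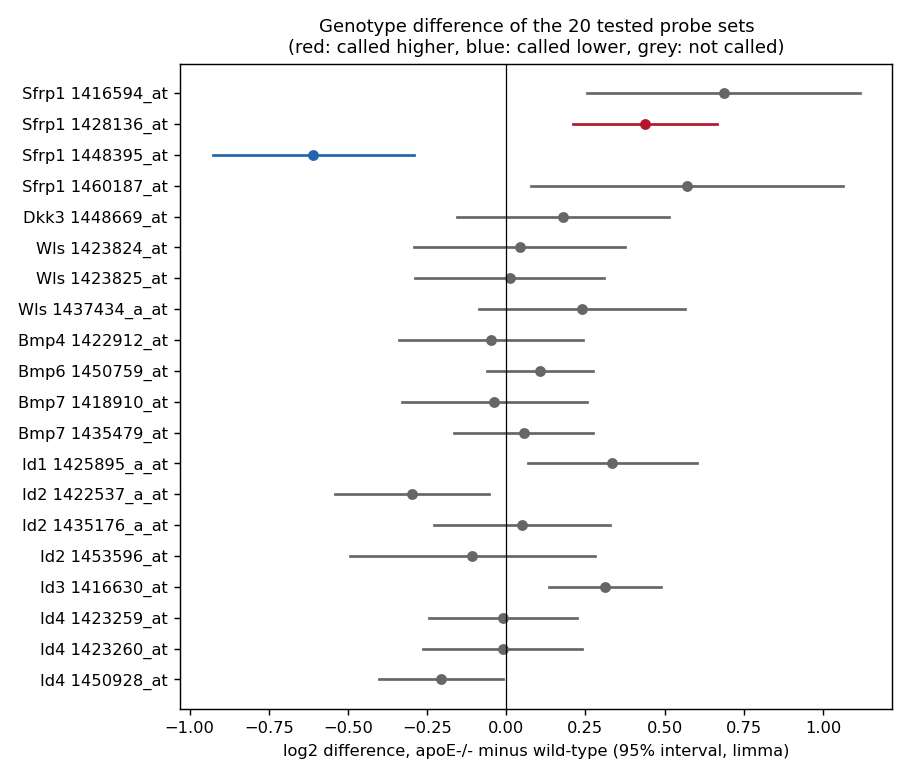
Log2 difference, apoE-/- minus wild-type, of the 20 tested probe sets (points) with the 95% interval from limma (lines), red where called higher, blue where called lower and grey where not called. Sfrp1 1428136_at at 0.44 and Sfrp1 1448395_at at -0.61 are the 2 coloured ones, and the intervals of 12 of the others cross 0.

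Sfrp1 encodes a secreted Frizzled-related protein that binds Wnts outside the cell, and it was the member with the most divergent readings. It was read by 5 probe sets, 4 of them tested. Probe set 1428136_at had signals of 4159, 4804, 5368 and 4566 in apoE-/- replicates 1 to 4 and 3880, 3445, 2782, 3658 and 3726 in wild-type replicates 1 to 5. Every apoE-/- array was above every wild-type array. By this probe set Sfrp1 rose 1.35-fold, from 3500 ± 430 (SD, n = 5) to 4720 ± 505 (SD, n = 4), with a log2 difference of 0.44 ± 0.11 (SE, limma adjusted p = 0.0432).

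Probe set 1448395_at of the same gene went the other way. Its signals were 501, 551, 472 and 419 in apoE-/- and 845, 638, 582, 933 and 744 in wild-type. Again the groups did not overlap, with apoE-/- the lower. By this probe set Sfrp1 fell 1.53-fold, from 748 ± 144 (SD, n = 5) to 486 ± 55.0 (SD, n = 4), with a log2 difference of -0.61 ± 0.15 (SE, limma adjusted p = 0.0446).

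The other tested Sfrp1 probe sets read higher in apoE-/- without passing. Probe set 1416594_at had signals of 781, 945, 481 and 663 in apoE-/- and 623, 417, 388, 453 and 334 in wild-type, a log2 difference of 0.69 ± 0.20 (SE, limma adjusted p = 0.0924). The overlap came from apoE-/- replicate 3, which lay below wild-type replicate 1. It was called higher once either array was left out, at an adjusted p of 0.0475 (leaving out the former) and 0.0397 (the latter). Without any other single array it was not called, at a limma adjusted p of 0.101 to 0.258. Probe set 1460187_at had signals of 1972, 1933, 2195 and 1912 in apoE-/- and 1100, 1412, 740, 1818 and 2121 in wild-type, a log2 difference of 0.57 ± 0.23 (SE, limma adjusted p = 0.231). Here the apoE-/- arrays lay close together, with an SD of 131 (n = 4), while the wild-type arrays spread over 551 (SD, n = 5) and replicate 5 reached the apoE-/- range.

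The fifth Sfrp1 probe set, 1438620_x_at, was called absent on all 9 arrays. Its suffix marks probes that may also bind other transcripts. It read 504, 394, 486 and 315 in apoE-/- and 731, 601, 573, 657 and 559 in wild-type, so the groups did not overlap here either, with apoE-/- the lower. No fold is given since neither group was called present.

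**Figure D2:**
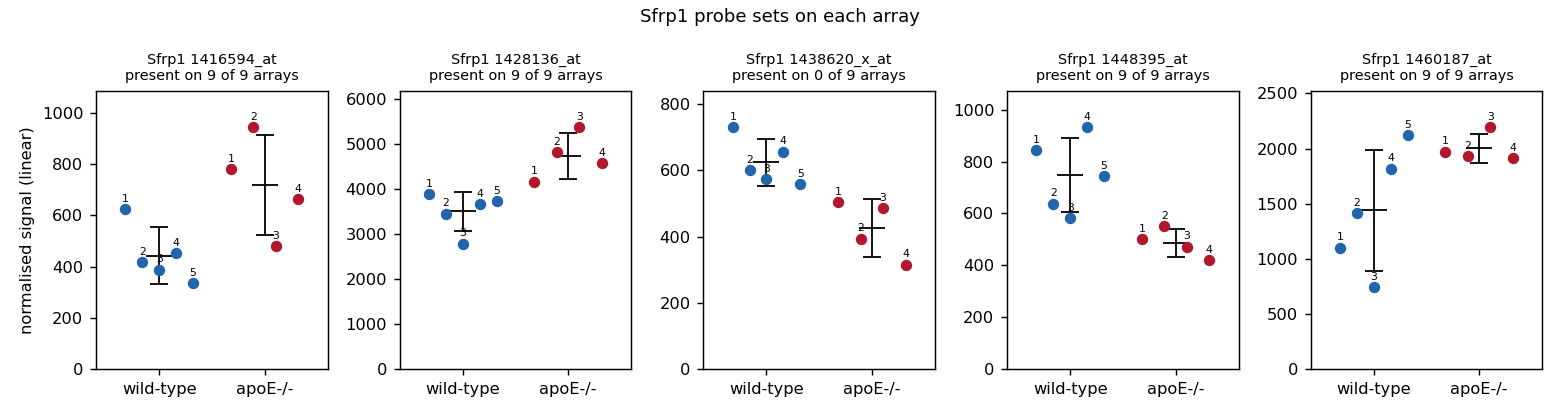
Normalised signal (linear axis from 0) of the 5 Sfrp1 probe sets on the 5 wild-type (blue) and 4 apoE-/- (red) arrays, with replicate numbers beside the points and the group mean ± SD in black. Probe set 1428136_at lies higher in apoE-/- and 1448395_at lower, both without overlap, and 1438620_x_at was present on 0 of 9 arrays.

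Both Sfrp1 calls were close to the threshold. Leaving out apoE-/- replicate 2, 3 or 4 moved the adjusted p of 1428136_at to 0.111, 0.166 and 0.0511. Leaving out wild-type replicate 2, 3 or 4 moved it to 0.0928, 0.0548 and 0.0815. The fall of 1448395_at was kept without wild-type replicate 3 and lost without any other array. Its adjusted p was 0.0876, 0.0546, 0.13 and 0.0809 without apoE-/- replicates 1 to 4, and 0.0837, 0.0554, 0.119 and 0.0701 without wild-type replicate 1, 2, 4 or 5. On the deposited scale, without quantile normalisation, the adjusted p-values were 0.059 for 1428136_at and 0.0571 for 1448395_at. Without the detection filter they were 0.0928 and 0.0888, and without the mean-variance trend 0.124 and 0.0869. Both directions were kept in all of these fits.

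Whether 2 Sfrp1 probe sets responded differently to genotype was tested directly. On each array the log2 signal of a probe set was subtracted from that of another of the same gene, and these within-array differences were compared between genotypes with limma over all 11608 pairs of tested probe sets from 4540 genes. Of these pairs 2.83% were called, and the groups did not overlap in 7.49%. Sfrp1 gave 6 pairs and 3 were called, the 3 that contain 1448395_at. The members Bmp7, Id2, Id4 and Wls gave the other 10 pairs, of which 0 were called (limma) and 2 had an unadjusted p under 0.05. In 4 of the 16 pairs the groups did not overlap. These p-values set the disagreement against the spread between arrays. Since Sfrp1 was chosen with its opposing probe sets already known, they are not independent evidence for it.

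The pair 1428136_at minus 1448395_at was 3.05, 3.12, 3.51 and 3.45 in apoE-/- replicates 1 to 4 and 2.20, 2.43, 2.26, 1.97 and 2.32 in wild-type replicates 1 to 5. The lowest apoE-/- array was thus above the highest wild-type array. The genotypes differed by 1.05 ± 0.15 on the log2 scale (SE, limma adjusted p = 0.00266), and this call held in each of the 17 other fits, with an adjusted p of at most 0.0159. The pair 1416594_at minus 1448395_at differed by 1.29 ± 0.21 (SE, adjusted p = 0.00591), without overlap. The pair 1448395_at minus 1460187_at differed by -1.18 ± 0.23 (SE, adjusted p = 0.0138), also without overlap, and missed the threshold (0.0561) once apoE-/- replicate 3 was left out.

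Among the 3 probe sets that read higher, no pair was called. Their differences between genotypes were 0.25 (95% interval -0.24 to 0.74) for 1416594_at minus 1428136_at, 0.12 (-0.62 to 0.85) for 1416594_at minus 1460187_at and -0.13 (-0.57 to 0.31) for 1428136_at minus 1460187_at. These intervals still allow differences of over 0.5 either way in 1 of the 3 pairs. Sfrp1 was 1 of 2 genes, of 4540 with several tested probe sets, that had probe sets called in both directions (0.0441%), and at least 1 pair was called for 4.45% of those genes. The platform annotation cites the same sequence record for 3 Sfrp1 probe sets, namely 1416594_at, 1448395_at and 1460187_at, so a probe set that was lower and 2 that read higher were named through 1 record. The ratio of 3′ to 5′ signal, a sign of RNA integrity, was 1.02 to 1.09 in apoE-/- and 0.87 to 1.33 in wild-type for the Gapdh control and 2.72 to 3.31 against 2.29 to 3.67 for the beta-actin control. These ranges overlapped, and their part in the Sfrp1 readings was not tested.

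**Figure D3:**
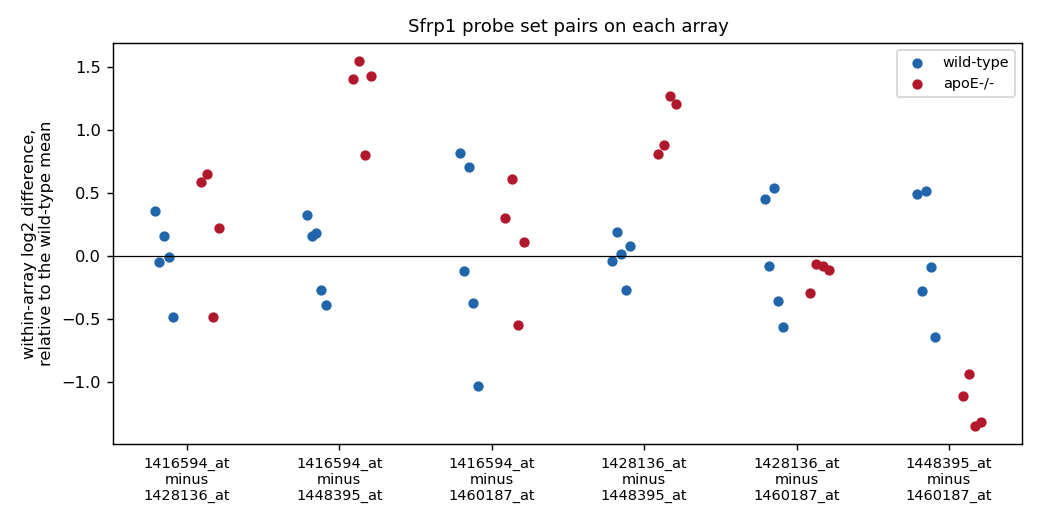
Within-array log2 difference between 2 Sfrp1 probe sets for all 6 pairs, each shifted so that the wild-type mean is 0, with wild-type arrays in blue and apoE-/- arrays in red. The groups separate in the 3 pairs that contain 1448395_at and overlap in the other 3.

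The array with the highest 1428136_at signal, apoE-/- replicate 3, also had the highest summed marker signal for choroid plexus epithelium, stromal fibroblasts and macrophages. By mean log2 level apoE-/- replicate 2 was the highest for stromal markers (0.20 against 0.18 for replicate 3). For epithelial markers it was wild-type replicate 5 (0.06 against 0.01 for apoE-/- replicate 3). Stromal markers summed to 14605 to 18008 in apoE-/- and 12250 to 15615 in wild-type, with 0 of 8 tested genes called (limma). The 2 of them with an unadjusted p under 0.05 read in opposite directions, Ogn at 0.31 and Col1a1 at -0.59. Macrophage markers summed to 7276 to 11191 against 5426 to 8835, with 2 of 6 tested genes, Lyz2 and C1qa, called higher. Mural cell markers summed to 11869 to 15749 against 11440 to 12602, with 1 of 6, Rgs5, called higher, while 4 of the 6 read below 0 and their median was -0.06. Ependymal markers summed to 2539 to 3886 against 1768 to 3590, and astrocyte markers to 3605 to 4151 against 2954 to 3607. Of 3 tested ependymal markers 0 were called (limma), but all read 0.47 to 0.63 and had an unadjusted p under 0.05, and of 4 astrocyte markers 0 were called, 4 read above 0 and 1 had such a p. These single markers are named after their values were seen. The part of these cells in the Sfrp1 signal was not tested. By the pattern over the 9 arrays, the genes most like 1428136_at, among 11089 genes read by their brightest tested probe set, were Msn (Pearson r = 0.963), Accs (r = 0.962) and Dera (r = 0.949). These are the highest of many correlations over 9 arrays that share the same group difference.

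Dkk3 encodes a secreted glycoprotein of the Dickkopf family of Wnt modulators. Its tested probe set, 1448669_at, read 419, 522, 590 and 445 in apoE-/- and 349, 482, 554, 383 and 426 in wild-type. The groups overlapped almost fully, and the log2 difference of 0.18 (95% interval -0.16 to 0.51, limma adjusted p = 0.613) was not distinguishable from 0. The other Dkk3 probe set, 1417312_at, read 190 to 270 in apoE-/- and 149 to 227 in wild-type and was called present on 1 array, of the wild-type group.

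Wls encodes the membrane protein that carries lipid-modified Wnts to the cell surface, so it serves Wnt release and is not an antagonist. Its probe set 1423824_at read 4995, 5421, 5535 and 7897 in apoE-/- and 4068, 6555, 5214, 6273 and 6894 in wild-type, with a log2 difference of 0.04 (95% interval -0.29 to 0.37, limma adjusted p = 0.924). The highest array was apoE-/- replicate 4 and the lowest wild-type replicate 1. Probe set 1423825_at ran from 1649 to 2239 in apoE-/- and from 1399 to 2323 in wild-type, a log2 difference of 0.01 (-0.29 to 0.31), and 1437434_a_at from 3667 to 5041 and from 2452 to 4626, a log2 difference of 0.24 (-0.09 to 0.56). Wild-type replicate 1 was the lowest array in all 3, and without it they read -0.08, -0.11 and 0.09. No pair of them was called, although the within-array difference 1423825_at minus 1437434_a_at did not overlap between groups, with means of -1.15 in apoE-/- and -0.92 in wild-type (limma adjusted p = 0.27). The fourth Wls probe set, 1458319_at, was called absent on all 9 arrays, at 7.62 to 89.6.

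The 3 BMP ligands did not differ beyond the spread between arrays. Bmp4 (1422912_at) read 866, 790, 859 and 671 in apoE-/- and 767, 949, 985, 664 and 777 in wild-type, a log2 difference of -0.05 (95% interval -0.34 to 0.24, limma adjusted p = 0.893). Bmp6 (1450759_at), also known as a liver regulator of the iron hormone hepcidin, read 5233, 4756, 4841 and 4480 in apoE-/- and 4356, 4555, 4904, 4095 and 4530 in wild-type. Its log2 difference of 0.11 (95% interval -0.06 to 0.27, adjusted p = 0.539) had the narrowest interval of the tested members, and it allows a rise of at most 0.27. Bmp7 (1435479_at) read 2783, 2831, 2559 and 2113 in apoE-/- and 2245, 2522, 2586, 2300 and 2670 in wild-type, a log2 difference of 0.06 (-0.16 to 0.27, adjusted p = 0.834). A second Bmp7 probe set, 1418910_at, read -0.04 (-0.33 to 0.25), and the third, 1432410_a_at, was called absent on all arrays.

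**Figure D4:**
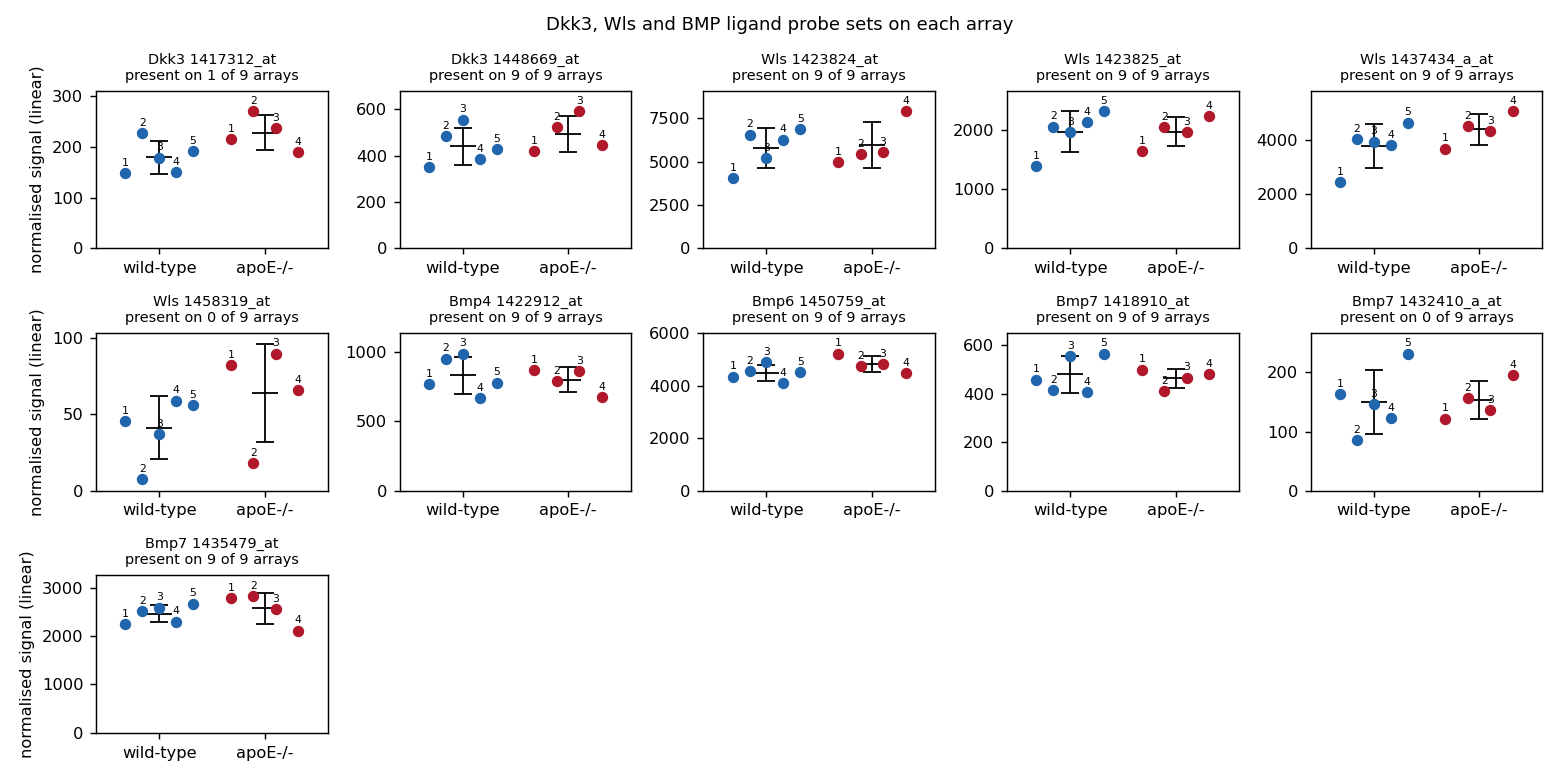
Normalised signal (linear axes from 0) of the Dkk3, Wls, Bmp4, Bmp6 and Bmp7 probe sets on the 5 wild-type (blue) and 4 apoE-/- (red) arrays, with replicate numbers and the group mean ± SD in black. The groups overlap in every panel, and wild-type replicate 1 is the lowest point of the 3 Wls probe sets that were present on 9 of 9 arrays.

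The ID genes are direct BMP targets in many cell types, and none of their 8 probe sets was called (limma), while 4 had an unadjusted p under 0.05. RefSeq promoter sequences (GRCm38.p6) were available for Id2, Id3 and Id4 among these, and for 6 of the 10 members in all. They are shown as the ID promoters on hand, Id3 having the smallest adjusted p of the ID genes. Each is the 250 bases before the annotated start, 5′ to 3′ on the gene's strand, with capitals marking matches on either strand to GGCGCC, a GC-rich element that SMADs can bind, or to CAGAC, the core of the SMAD box (GTCTG on the other strand).
Id3 promoter (chr4:136143572-136143821, plus strand): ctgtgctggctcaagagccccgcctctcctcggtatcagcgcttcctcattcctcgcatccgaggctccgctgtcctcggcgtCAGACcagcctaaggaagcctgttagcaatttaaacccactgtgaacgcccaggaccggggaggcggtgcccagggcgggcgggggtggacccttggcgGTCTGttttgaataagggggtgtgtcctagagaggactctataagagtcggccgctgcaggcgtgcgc
Id2 promoter (chr12:25096093-25096342, minus strand): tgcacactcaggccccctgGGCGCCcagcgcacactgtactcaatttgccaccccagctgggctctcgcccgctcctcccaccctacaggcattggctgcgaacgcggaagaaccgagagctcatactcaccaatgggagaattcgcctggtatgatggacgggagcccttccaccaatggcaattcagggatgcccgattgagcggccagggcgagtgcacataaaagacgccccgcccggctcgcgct
Id4 promoter (chr13:48260866-48261115, plus strand): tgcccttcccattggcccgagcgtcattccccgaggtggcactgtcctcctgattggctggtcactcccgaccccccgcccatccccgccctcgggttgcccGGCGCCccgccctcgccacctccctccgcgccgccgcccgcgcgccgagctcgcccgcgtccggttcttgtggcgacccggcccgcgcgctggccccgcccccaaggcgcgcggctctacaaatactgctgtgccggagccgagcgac
The Id3 window held 2 CAGAC matches, which begin 167 and 68 bases before the start, and no GGCGCC. Those of Id2 and Id4 each held 1 GGCGCC, beginning 231 and 148 bases before the start, and no CAGAC. In the same window of all 32851 listed promoters CAGAC occurred in 42.2% and GGCGCC in 9.59%, and the 2 motifs do not overlap. These matches describe the letters and are not shown to be binding sites.

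Id3 read higher in apoE-/- on every array without passing the threshold. Its probe set 1416630_at had signals of 5573, 6521, 5385 and 5894 in apoE-/- and 4221, 4615, 4704, 4815 and 5183 in wild-type. The lowest apoE-/- array, replicate 3, lay above the highest wild-type array, replicate 5. The log2 difference was 0.31 ± 0.08 (SE, limma adjusted p = 0.0641), or 1.24-fold, with a 95% interval of 0.14 to 0.49. The adjusted p was 0.0456 without wild-type replicate 5, and between 0.0866 and 0.198 without any other array.

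Id1 read in the same direction. Probe set 1425895_a_at had signals of 4036, 4993, 3717 and 3777 in apoE-/- and 2493, 3207, 3506, 3303 and 3929 in wild-type. The groups overlapped through wild-type replicate 5, which was above apoE-/- replicates 3 and 4. The log2 difference was 0.34 (95% interval 0.07 to 0.60, limma adjusted p = 0.196). For both genes apoE-/- replicate 2 was the highest array and wild-type replicate 1 the lowest. Without wild-type replicate 1 Id1 read 0.24 and Id3 0.27.

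Id2 was read by 3 probe sets, none of them called. Probe set 1422537_a_at read 1472, 1734, 1309 and 1947 in apoE-/- and 1855, 1904, 2051, 1940 and 2079 in wild-type. All apoE-/- arrays except replicate 4 were below the wild-type range, and the log2 difference was -0.30 (95% interval -0.54 to -0.05, limma adjusted p = 0.203). Probe set 1435176_a_at read 3803, 3708, 3552 and 5412 against 4017, 4102, 3105, 4494 and 4020, a log2 difference of 0.05 (-0.23 to 0.33, adjusted p = 0.884). Its sign rested on single arrays, since it read -0.09 once apoE-/- replicate 4 was left out and -0.03 when wild-type replicate 3 was. Probe set 1453596_at read 173 to 219 in apoE-/- and 176 to 300 in wild-type, a log2 difference of -0.11 (-0.49 to 0.28). The difference between the first 2 of these probe sets, -0.35 ± 0.14 (SE), was not called (limma adjusted p = 0.218).

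Id4 was also read by 3 probe sets. Probe set 1450928_at read 4346, 4337, 3775 and 5125 in apoE-/- and 4624, 5466, 5311, 4951 and 4918 in wild-type, so that replicate 4 was the only apoE-/- array within the wild-type range. Its log2 difference was -0.21 (95% interval -0.40 to -0.01, limma adjusted p = 0.273). Probe sets 1423259_at and 1423260_at both read -0.01, with intervals of -0.24 to 0.22 and -0.26 to 0.24. The apoE-/- arrays of 1423259_at lay between 3253 and 3419 while the wild-type arrays ran from 2596 to 4017.

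**Figure D5:**
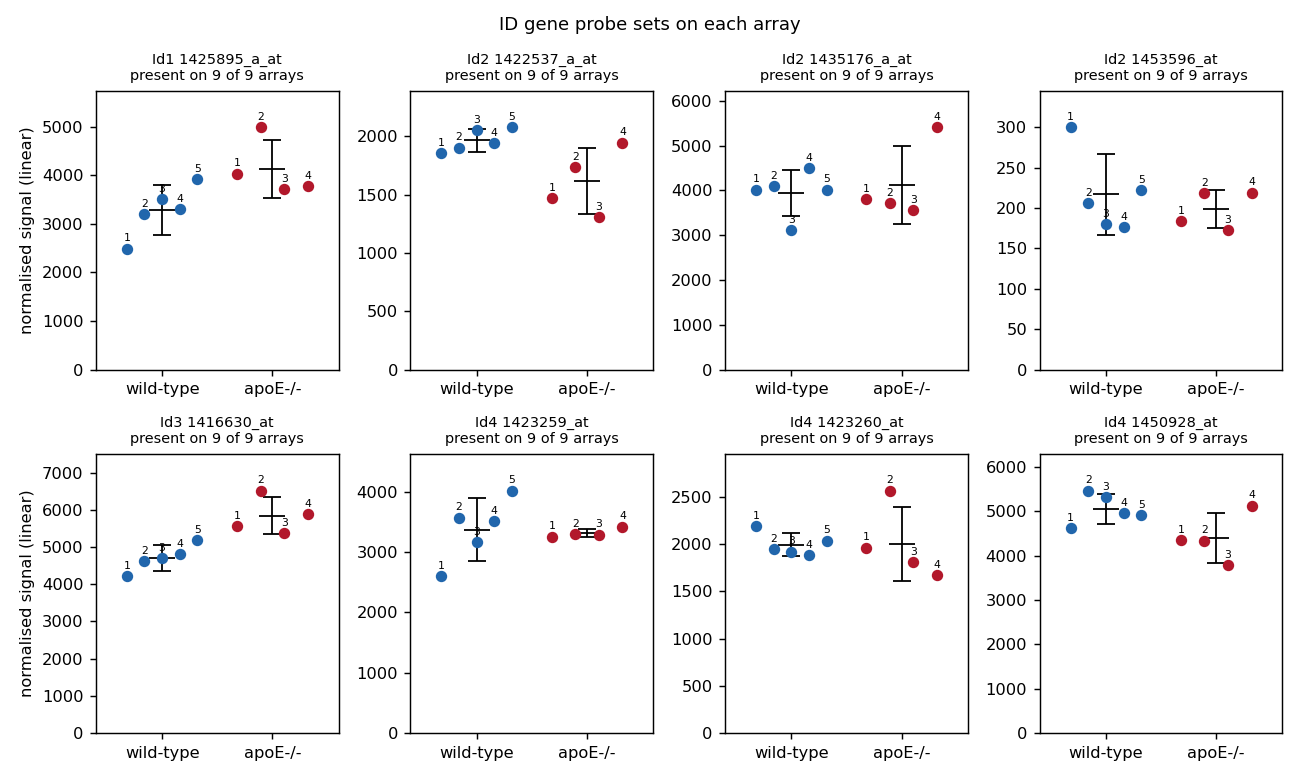
Normalised signal (linear axes from 0) of the 8 probe sets of Id1, Id2, Id3 and Id4 on the 5 wild-type (blue) and 4 apoE-/- (red) arrays, with replicate numbers and the group mean ± SD in black. Id3 is the only panel in which the groups do not overlap, from 5385 to 6521 in apoE-/- against 4221 to 5183 in wild-type.

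Wild-type replicate 1 was the lowest of the 9 arrays for 7 of the 20 tested probe sets, namely those of Dkk3, Id1 and Id3, the 3 of Wls and 1423259_at of Id4. Its mean log2 level stood 0.73 above the average over arrays for neuron markers and 0.98 above it for oligodendrocyte markers. It stood 0.40 above it for ependymal and 0.32 above it for astrocyte markers, and 0.23 below it for stromal markers, as did apoE-/- replicate 1. For choroid plexus epithelium its marker sum, 141532, was the lowest of the 9 arrays, and its mean log2 level stood 0.04 below the average, as did that of apoE-/- replicate 4. The part of these markers in its low member signals was not tested. Without this array 2 member probe sets were called higher and 0 lower (limma), both of Sfrp1.

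Other genes of the Wnt and BMP pathways were read through 10 lists of 152 genes, each gene by its brightest tested probe set, and 83 genes were tested. Of these, 1 was called lower and 0 higher (limma), against 1.66% of the 11089 genes tested in this way, of which 14.8% had an unadjusted p under 0.05. They had a median log2 difference of 0.052, against 0.017 over all 11089. Over all 144 tested probe sets of these genes 7 were called lower and 0 higher, against 1.92% and 0.67% of all tested probe sets, and they came from 6 genes, Gsk3a, Gsk3b, Fzd4, Crim1, Tcf4 and Tcf12.

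On the Wnt side, few ligands were detected. Of 19 Wnt ligand genes 4 were tested and 0 called, with log2 differences of -0.16 to 0.11, the ends being Wnt5b (-0.16) and Wnt5a (0.11) by the brightest probe sets. The other 2 tested probe sets of Wnt5a read -1.34 without overlap (1448818_at, adjusted p = 0.15, present on 1 of the apoE-/- arrays) and -0.33 (1437673_at). Of 13 tested receptors and co-receptors 0 were called by the brightest probe set and 3 had an unadjusted p under 0.05. Ryk, a receptor-like kinase that binds Wnts, read 0.38 (adjusted p = 0.123), and Ror1, a receptor kinase for Wnt5a, read -0.38 (adjusted p = 0.196). The other tested Ryk probe set, 1451789_a_at, read -0.045 (limma adjusted p = 0.93). Fzd4, a Frizzled receptor, read 0.00 by its brightest probe set, while 1419301_at fell by 0.51 (adjusted p = 0.0256). That probe set read 1649 to 2162 in apoE-/- and 2319 to 3161 in wild-type. Its difference from the brightest, -0.51 ± 0.16 (SE), was not called (limma adjusted p = 0.111).

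Among 18 tested genes of Wnt signal transduction, Gsk3a was called lower and 5 had an unadjusted p under 0.05. Gsk3a, a kinase of the complex that marks beta-catenin for destruction, read 2895, 2031, 2011 and 3346 in apoE-/- and 4214, 4475, 3980, 4317 and 3464 in wild-type. It fell by 0.70 ± 0.14 on the log2 scale (SE, limma adjusted p = 0.0182), and the groups did not overlap. Its paralog Gsk3b had 4 tested probe sets. Of these, 1437001_at fell by 1.88 (adjusted p = 0.00281), 1451020_at fell by 0.91 (adjusted p = 0.0293, present on 1 of the apoE-/- arrays), and the other 2 read 0.11 and 0.05. As in Sfrp1, both lower Gsk3b probe sets differed from the brightest in the test of pairs, 1437001_at by -1.99 ± 0.34 (SE, adjusted p = 0.00784) and 1451020_at by -1.01 ± 0.25 (SE, adjusted p = 0.0499). The casein kinase Csnk1e read 0.44 without overlap by its brightest probe set (adjusted p = 0.0707). Its other tested probe set, 1417176_at, read -0.16 with overlap (limma adjusted p = 0.704). The Gsk3a call was lost on leaving out 1 of 4 arrays, at an adjusted p of 0.0556 and 0.0697 (apoE-/- replicates 2 and 3) and 0.0506 and 0.0558 (wild-type replicates 2 and 4). That of Fzd4 was lost on leaving out 1 of 6 arrays, at 0.0501, 0.0881 and 0.0503 (apoE-/- replicates 2 to 4) and 0.0546, 0.0504 and 0.0779 (wild-type replicates 1, 3 and 4). That of 1451020_at was lost on leaving out 1 of 3 arrays, at 0.0802 (apoE-/- replicate 3) and 0.0606 and 0.0874 (wild-type replicates 3 and 4). Without the detection filter the adjusted p was 0.0519 for Gsk3a, 0.0551 for Fzd4 and 0.0801 for 1451020_at, and without the mean-variance trend 0.0721, 0.0791 and 0.065. With 75th percentile scaling that of 1451020_at was 0.0541.

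The other secreted Wnt inhibitors and the Wnt target genes gave no call. Of 5 tested inhibitors 0 passed (limma) and 0 had an unadjusted p under 0.05 by the brightest probe set. Sostdc1, which antagonises both BMPs and Wnt signalling and is a marker of choroid plexus epithelium, read 18085 to 25164 in apoE-/- and 20858 to 25028 in wild-type, and its log2 difference was -0.08 (95% interval -0.26 to 0.11). Its other probe set, 1460250_at, read -0.24 (-0.47 to -0.02, adjusted p = 0.264, unadjusted p = 0.0361). Sfrp5, a relative of Sfrp1, read 0.31 (adjusted p = 0.476). Of 8 tested Wnt targets 0 passed and 1 had an unadjusted p under 0.05, the cyclin Ccnd1 at 0.35 (adjusted p = 0.191), while Axin2, a feedback target of beta-catenin, read -0.18 (adjusted p = 0.445). The other tested Ccnd1 probe set, 1417420_at, read 0.07 (limma adjusted p = 0.856).

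On the BMP side, 13 of 14 tested receptor and SMAD genes read above 0, with a median of 0.15, while 53.4% of all genes read so did. None of the 14 was called by limma, and 2 had an unadjusted p under 0.05. They were the co-receptor Rgmb, at 549 to 605 in apoE-/- and 428 to 501 in wild-type (0.36, adjusted p = 0.103), and Smad1, which carries the BMP signal, at 0.25 (adjusted p = 0.266). The other 3 probe sets of Rgmb read 0.07, -0.35 and -0.12, each with an interval that crossed 0. The other tested Smad1 probe set, 1459843_s_at, read 0.007 (limma adjusted p = 0.987). Of 4 other BMP and GDF ligands tested 0 were called, with Bmp5 at 0.12 and Bmp2 at -0.22, and 0 had an unadjusted p under 0.05.

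Of 7 tested BMP antagonists 0 were called by the brightest probe set and 0 had an unadjusted p under 0.05. Fstl1, which is related to follistatin, read 0.29 (adjusted p = 0.305) and Twsg1, an extracellular BMP-binding protein, 0.11 (adjusted p = 0.716). The other tested Fstl1 probe set, 1448259_at, also read 0.29 (limma unadjusted p = 0.0318, adjusted p = 0.25). The other tested Twsg1 probe sets read 0.298 (1421832_at) and -0.339 (1426073_at), each with an interval that crossed 0. Crim1, a membrane protein with chordin-like repeats, fell by 1.19 ± 0.17 (SE, limma adjusted p = 0.00281) by probe set 1426951_at, with signals of 162, 119, 127 and 102 in apoE-/- and 287, 282, 330, 308 and 234 in wild-type. Its brightest probe set read -0.24 ± 0.33 (SE), and the difference between them was not called (adjusted p = 0.239). Of 6 other BMP targets tested 0 were called (limma) and 1, the homeobox gene Msx2, had an unadjusted p under 0.05. Msx2 read 170 to 220 in apoE-/- and 129 to 166 in wild-type without overlap, a log2 difference of 0.39 (adjusted p = 0.249). Bambi, a decoy receptor, read 0.30 (adjusted p = 0.522).

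Of 4 tested partners of the ID proteins, 3 read lower by the brightest probe set and 0 were called (limma), with 1 at an unadjusted p under 0.05. Tcf4 read -0.26 (adjusted p = 0.194) by its brightest probe set, and 1416724_x_at fell by 0.54 (adjusted p = 0.0361). The other tested Tcf4 probe sets read 0.122 (1434148_at), -0.235 (1434149_at) and -0.197 (1424089_a_at), none of them called. Tcf12 read -0.14 (adjusted p = 0.511), and its probe set 1439619_at fell by 0.89 (adjusted p = 0.0334). Its other tested probe sets read 0.158 (1421908_a_at) and -0.072 (1439209_at), neither of them called. Neither called probe set differed from the brightest in the test of pairs, at an adjusted p of 0.311 for Tcf4 and 0.0968 for Tcf12. Without 1 array the adjusted p of 1416724_x_at was 0.0727, 0.0817 or 0.067 (apoE-/- replicate 1, 3 or 4) and 0.0636, 0.0896, 0.0689 or 0.078 (wild-type replicates 1 to 4). That of 1439619_at was 0.0609 or 0.0613 (apoE-/- replicate 2 or 3) and 0.0607, 0.0881, 0.0651 or 0.0818 (wild-type replicates 1 to 4). With 75th percentile scaling, without the detection filter and without the mean-variance trend it was 0.0541, 0.0667 and 0.0628 for 1416724_x_at and 0.0673, 0.0986 and 0.0537 for 1439619_at, which was also 0.0573 on the deposited scale.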

How the data were processed

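Total RNA of laser-captured choroid plexus was labelled with biotin by in vitro transcription, per the labels' protocols, and hybridised to 9 1-colour arrays. GCOS 1.4 made the values, per the submitters' processing notes, with its background and summary settings not given in the sources used here. The authors' deposited intensities are linear and were scaled per array, with a 2% trimmed mean of 500.0 on every array. The deposited detection calls (present, marginal, absent) were used as a filter, and 9 columns of detection p were not used. All 405909 intensities were identical in the deposited series matrix.

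Intensities were taken to log2 and quantile normalised, since array medians ranged over 0.214 (limit 0.1). The 21478 non-control probe sets present on at least 4 arrays were fitted by genotype alone in R 4.3.3 with limma 3.58.1, using a trended eBayes prior and two-sided tests. Pairs of probe sets of a gene were fitted likewise. The limma step was tested on simulated data. Gene names came from the platform annotation, in which 34958 probe sets have 1 symbol, 932 have several and 9211 are not listed, with symbols updated by gene ID. The members and lists were chosen with earlier results of these data known. From each list, every gene with a called probe set and otherwise the 2 of smallest p by the brightest probe set were named. The number of arrays limits the precision. Alternatives were 2 scalings, 2 filters, an offset, 2 variance priors, a replicate block and each array left out.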

Additional observations from a re-analysis of the deposited data

Results flagged for a closer look

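In the apoE-/- group, replicate 4 lay far from the other arrays for Id2 probe set 1435176_a_at, at a signal of 5412 against 3552 to 3803 on the other 3 arrays. The gap to the nearest array was 0.837 of the group's range. It was the only such case among 40 sets of arrays examined (20 probe sets in 2 groups), of which chance alone would pick about 1 in 20.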

How the results depend on the processing

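Neither single Sfrp1 call held in every fit, while their difference did. The 1 member called higher was 0 on the deposited scale, with 75th percentile scaling, without the detection filter and without the mean-variance trend, and 0 to 2 on leaving out an array. In place of 1428136_at, the 1 called higher was Id3 with the replicate block and Sfrp1 1416594_at without apoE-/- replicate 3. The 1 called lower was 0 in the same fits and with the replicate block, and 0 to 1 on leaving out an array. Sfrp1 pairs called numbered 2 to 3. Without the filter, 2 of the original 3 passed, 1448395_at with 1460187_at missing (limma adjusted p = 0.0509), and the third was 1428136_at with 1438620_x_at, which was absent on all arrays. Over the whole array, those higher numbered 81 without the filter, 57 without the trend and 56 to 236 on leaving out an array (main 144), those lower 248, 252 and 207 to 525 (main 412), and pairs 152 without the filter and 160 to 417 on leaving out an array (main 329). The labels do not say whether replicate numbers pair the samples. Same-numbered arrays had deviations correlated at 0.16, -0.015, 0.031 and 0.008. The best-matching wild-type array of apoE-/- replicates 1 to 4 was replicate 1, 1, 2 and 5, so pairing was neither shown nor excluded. With the replicate block the adjusted p of limma was 0.0762 for Sfrp1 1428136_at, 0.0829 for Sfrp1 1448395_at and 0.0738 for Gsk3b 1451020_at, all lost calls. The block moved Id3 to 0.347 (adjusted p = 0.0493) and turned the sign of Bmp7 1418910_at (0.0246), Id4 1423259_at (0.0572), Fzd4 1434756_at (0.0326) and the pair Sfrp1 1416594_at minus 1460187_at (-0.142). Wls 1423825_at read -0.00117 on the deposited scale. Results that were not called changed sign on leaving out an array, over these ranges: Wls 1423824_at -0.102 to 0.118 and 1423825_at -0.108 to 0.095, Bmp4 -0.124 to 0.0313, Bmp7 1418910_at -0.0932 to 0.0245, Id2 1435176_a_at -0.0892 to 0.115 and 1453596_at -0.176 to 0.0164, Id4 1423259_at -0.0989 to 0.0565 and 1423260_at -0.138 to 0.0698, Wnt5a -0.0813 to 0.237, Fzd4 1434756_at -0.0618 to 0.0663, Gsk3b 1454958_at -0.013 to 0.175, Sostdc1 -0.145 to 0.0148, Crim1 1452253_at -0.53 to 0.0443, and the Sfrp1 pairs of 1460187_at with 1416594_at -0.145 to 0.339 and with 1428136_at -0.27 to 0.00187. Of 963 refitted values of named probe sets and pairs, 853 kept their direction and side of the threshold, 67 lost a call, 5 gained one and 38 changed sign, of which 0 were called in either fit. With 4 and 5 arrays a group, small differences are not detectable. The cause of these changes was not tested.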
